A study of Homo sapiens with 91 samples.

Results

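The expression of 10 genes of the cyclin and cyclin-dependent kinase (CDK) machinery was followed in single cells of a human cell line: the cyclins CCNA2, CCNB1, CCNB2, CCNE1, CCNE2, CCND1, CCND2 and CCND3 and the kinases CDK1 and CDK2. They were chosen by name, as 10 of the 57820 gene identifiers in each file, and all 10 were found. RNA was measured by MATQ-seq, which copies the total RNA of a single cell into cDNA and marks each copy with a random barcode before amplification, so that original molecules can be counted. The 48 libraries came from 1 clone of HEK293T, a transformed line of human embryonic kidney origin grown in serum-containing medium, with no treatment named in the labels: 38 held 1 single cell each, and 10 held an averaged aliquot, a portion of pooled and split material. The other 43 samples of the series were not analysed here. The aliquots show how far the method scatters when the input is alike, and the cells show that scatter together with any difference between cells. HEK293T carries viral proteins, among them SV40 large T antigen, which binds the RB family, so that the step controlled by D-type cyclins is altered in this line. Whether both kinds of library came from 1 culture or day is not stated in the labels.

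Cyclins are the regulatory subunits of CDKs and are made and destroyed in a set order through the cell cycle. D-type cyclins act with CDK4 and CDK6 early in G1, E-type cyclins with CDK2 at entry into S phase, cyclin A2 with CDK2 and CDK1 through S and G2, and B-type cyclins with CDK1 in mitosis. Messages of cyclins A2, B1 and B2 and of CDK1 are made mostly late in the cycle, those of E-type cyclins around the start of S phase, while D-type messages follow growth signals more than phase.

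Cell libraries held 128322 to 326476 exonic barcodes (median 217070) and aliquots 152542 to 275215 (median 173966). Levels are CPM, counts per 1000000 exonic barcodes of a library after TMM scaling. A library with no barcode of a gene still allows a level of up to 3 barcodes, which was 9.18 to 22.99 CPM over the cells and 10.5 to 19.7 CPM over the aliquots, for counting error only. Of the HEK293T markers IRS4, VIM, LIN28B, NEFM and SOX11 the summed level was 444 to 2011 CPM in cells and 1179 to 1748 CPM in aliquots. The 6 markers of mammary epithelium, the tissue of the other line of the series, summed to 0 to 142 CPM in cells and 11.97 to 91.2 CPM in aliquots. Most of that was EGFR, at a mean of 40.7 and 29.7 CPM. LAMB3 averaged 2.72 and 1.22 CPM, and S100A2, KRT5, KRT14 and TP63 at most 1.115 CPM in either group. The 4 fibroblast markers summed to 0 to 52.4 CPM in cells and 0 to 32.8 CPM in aliquots, with COL1A1 at a mean of 14.9 and 10.2 CPM, COL1A2 at 1.56 and 1.05, DCN at 1.03 and 1.31, and LUM at 0 in all 48 libraries. The 3 blood markers summed to at most 20.4 CPM in a cell and 5.70 CPM in an aliquot. The part of these markers in the results was not tested.

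Per kilobase of exon, the highest mean level in cells was that of CCNB1, at 63.4 CPM per kb ± 31.3 (SD, n = 38), next to CCNA2 at 53.2 ± 17.6. These 2 could not be ordered, since CCNB1 was above CCNA2 in 21 of 38 cells and in 4 of 10 aliquots. CCNA2 was above CCND2, the third at 24.4 CPM per kb ± 14.5, in 35 cells and in 10 of 10 aliquots. Next came CCNB2 at 14.4 ± 8.76, CCNE1 at 14.1 ± 10.95, CDK1 at 13.9 ± 6.06 and CCND1 at 12.5 ± 16.4 CPM per kb, 4 genes whose means lie within their spread between cells. CCND3 had a mean of 6.82 CPM per kb ± 3.74. CCND1 was above it in 17 of 38 cells and in 4 of 10 aliquots. The median of CCND1 in cells was the lower of the 2, at 4.75 against 6.68 CPM per kb, so they could not be ordered either. CCND3 was above CCNE2, at 3.04 ± 3.09, in 36 of 38 cells and in 7 of 10 aliquots. CDK2 had no exonic barcode in any cell. Mean levels of cells and aliquots are given as values only, because a mean of each kind of library rests on 1 source of material.

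**Figure D1:**
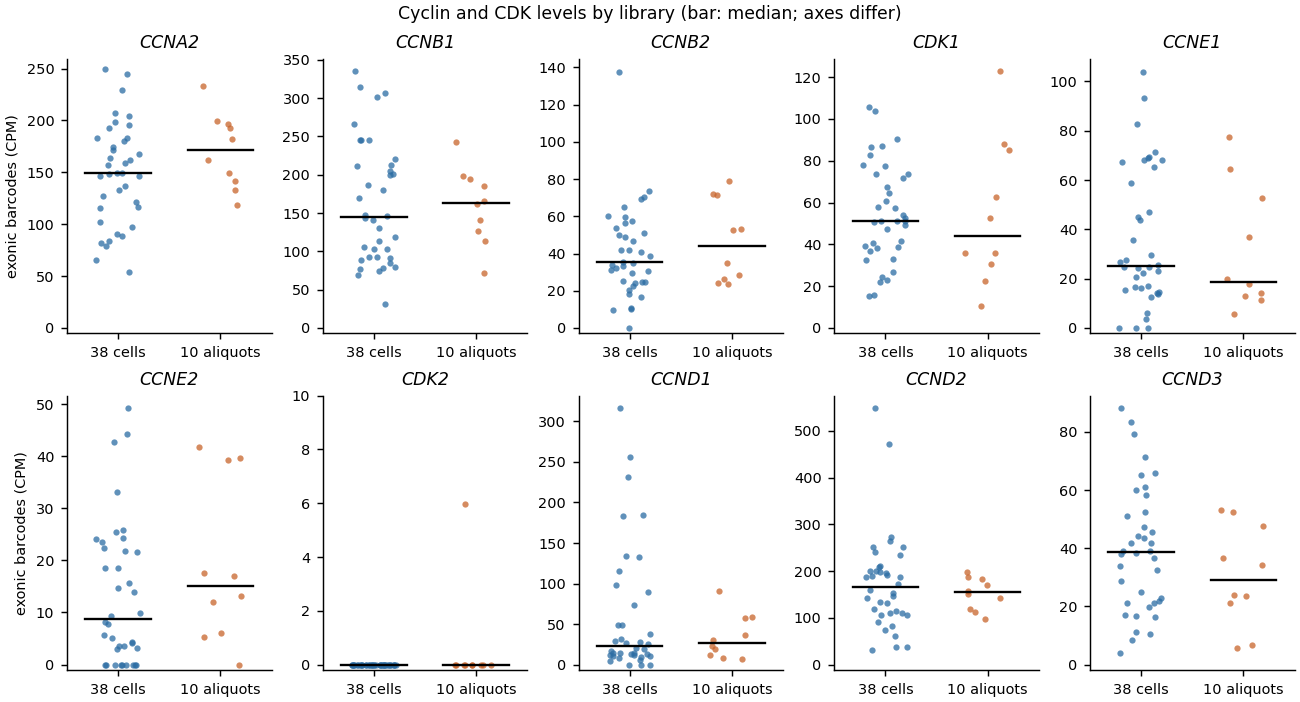
Exonic CPM of each gene in the 38 single cells (blue) and the 10 averaged aliquots (orange), 1 point per library, with the group median as a bar and a separate axis for each gene. CCND1 reached 316 CPM in cells against a median of 22.9 CPM, and CDK2 was at 0 in all cells.

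The question set by the design is whether the genes varied more between cells than between aliquots. None of the 9 genes with at least 10 CPM on average passed that test: with limma on absolute deviations of log2 CPM from the group median, 0 of 9 had an adjusted p under 0.05 over 9992 genes, as did 0.0% of all genes with larger spread in cells. At an unadjusted p under 0.05, 1 of 9, CCND2, had the larger spread in cells, against 3.67% of all genes tested. A negative-binomial test of 2 dispersions against 1 also called 0 of 9, with 0.23% of all genes called at an adjusted p under 0.05, and at an unadjusted p under 0.05 it gave 1 of 9, again CCND2, against 6.86% of all genes. The mean deviation was larger in cells for 7 of the 9 genes and for 54.9% of all genes. The median ratio of cell to aliquot deviation was 1.18-fold over the 9 genes and 1.04-fold over all genes. A p that misses the threshold does not show that the spreads were alike. P-values measure the spread between these libraries of 1 clone.

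**Figure D2:**
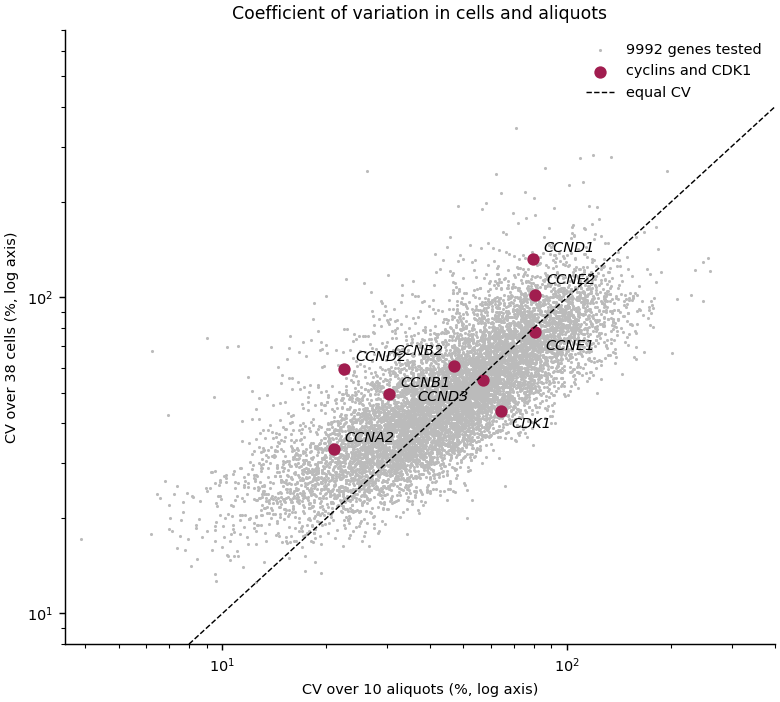
Coefficient of variation (CV, SD over mean) of CPM over 10 aliquots (x) and over 38 cells (y), both on log axes, for the 9992 genes tested (grey) and the 8 cyclins and CDK1 (red), with a dashed line where both are equal. CCND2 lies farthest above the line among the named genes, at 59.5% in cells and 22.6% in aliquots, and CDK1 below it, at 43.6% and 64.1%.

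CCNB1 (ENSG00000134057) encodes cyclin B1, the main mitotic partner of CDK1. Its level ran from 30.7 CPM in cell 15 through a median of 145 to 336 CPM in cell 29, and in aliquots from 72.2 through 163 to 242 CPM. Of the cells, 8 lay above every aliquot, 2 below and 28 within the range of the aliquots. The CV was 49.4% in cells and 30.5% in aliquots, where counting alone would give 16.8% and 18.5%. Mean deviation on the log2 scale was 0.63 in cells and 0.37 in aliquots, and the limma test gave p = 0.123 (adjusted p = 0.757). Without averaged aliquot 9, its lowest, the log2 ratio went from 0.78 to 1.31 and the unadjusted limma p to 0.0311, with no adjusted p under 0.706 in any fit with 1 library left out.

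CCNB2 (ENSG00000157456) encodes cyclin B2, a second mitotic cyclin. It had 0 barcodes in cell 19, a median of 35.2 CPM and a maximum of 138 CPM in cell 30, where the next cell stood at 73.4 CPM. Aliquots ran from 23.4 through 43.8 to 79.2 CPM, so that cell 30 was the 1 cell above them all, while 8 cells were below them all. With a median of 8.5 barcodes per cell, counting alone gives a CV of 33.6%, and the observed CV was 60.8% in cells and 47.1% in aliquots (limma p = 0.820, adjusted p = 0.977).

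CCNA2 (ENSG00000145386) encodes cyclin A2, which acts in S phase and G2. It was the steadiest of the genes in cells, with a CV of 33.04% over a range of 53.7 to 249 CPM (median 149 CPM), the lowest in cell 15 and the highest in cell 35. The aliquots held 118 to 233 CPM (median 172 CPM, CV 21.03%), and 11 cells fell below that range while 2 lay above it. The limma test gave p = 0.223 (adjusted p = 0.833). Of its exon bases 9.08% overlap EXOSC9 on the opposite strand, and the strand setting of the counting is unknown here. EXOSC9 had a mean of 124 CPM in cells and a rho of 0.43 with CCNA2 over cells. The part of EXOSC9 in the counts of CCNA2 was not tested.

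CDK1 (ENSG00000170312), the kinase that drives entry into mitosis, is the 1 gene tested for which the aliquots covered all 38 cells. Cells ran from 15.1 CPM in cell 9 through 51.1 to 106 CPM in cell 14, and aliquots from 10.5 through 44.2 to 123 CPM. Its mean was 54.6 CPM in both groups. The fitted dispersion was 0.130 in cells and 0.356 in aliquots (negative-binomial p = 0.175, adjusted p = 0.721), and in the limma test the larger deviation in aliquots gave p = 0.0994 (adjusted p = 0.735).

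Promoters of late cell cycle genes are known for CCAAT boxes, bound by NF-Y, and a cell cycle homology region (CHR), bound by MuvB complexes. The windows from 130 bases before to 20 bases after the annotated start are shown for the 4 late genes, from RefSeq on GRCh38.p14. These genes share a phase, but some pairs of them had a negative rho over cells, as given below. Capitals mark CCAAT, and the hexamer TTTGAA with its variants TTTAAA and also CTTGAA and also CTTAAA, used here as CHR-like letters, on either strand.
CCNB1: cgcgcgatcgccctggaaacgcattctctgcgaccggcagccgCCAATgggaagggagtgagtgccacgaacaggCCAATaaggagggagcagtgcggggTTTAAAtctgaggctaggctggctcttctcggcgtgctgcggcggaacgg
CCNB2: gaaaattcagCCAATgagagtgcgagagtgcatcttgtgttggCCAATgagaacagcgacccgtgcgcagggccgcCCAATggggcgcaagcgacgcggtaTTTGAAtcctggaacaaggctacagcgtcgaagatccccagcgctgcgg
CCNA2: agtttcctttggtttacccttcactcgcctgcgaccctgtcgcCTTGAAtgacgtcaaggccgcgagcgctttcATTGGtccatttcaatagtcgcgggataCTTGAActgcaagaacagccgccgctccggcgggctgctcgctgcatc
CDK1: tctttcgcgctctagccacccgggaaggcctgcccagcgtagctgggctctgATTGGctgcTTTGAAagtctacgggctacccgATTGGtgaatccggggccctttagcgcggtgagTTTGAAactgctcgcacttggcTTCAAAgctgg
The windows are chr5:69167020-69167169 (plus strand), chr15:59105016-59105165 (plus strand), chr4:121823864-121824013 (minus strand) and chr10:60778348-60778497 (plus strand). Of the 10 genes 6 matched the table, and CDK1 has 2 entries, of which the one shown was chosen because the other held no match. CCNB1 held CCAAT at -87 and -55 and a hexamer at -30 from the start, and CCNB2 CCAAT at -120, -87 and -54 and a hexamer at -29. CCNA2 held 1 CCAAT on the minus strand at -56 and hexamers at -87 and -28, and CDK1 2 on the minus strand at -78 and -46 with hexamers at -69, -13 and 10. The G1/S gene CCNE1 also held a hexamer, TTTAAA at -28, with no CCAAT, and 1 of the 3 entries of CCND3 held a CCAAT on the minus strand at -64 with no hexamer. Among the 35116 promoters of the table, 22.9% held at least 1 CCAAT in the same window and 20.4% a hexamer. At least 1 CCAAT together with a hexamer was held by 4.99%, as by all 4 late genes shown. At least 2 CCAAT together with a hexamer were held by 1.05%, as by CCNB1, CCNB2 and CDK1 but not by CCNA2. These shares are per promoter, while the entry of CDK1 was chosen for its matches. These are matches of letters, and no binding was measured.

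CCNE1 (ENSG00000105173) and CCNE2 (ENSG00000175305) encode the E-type cyclins. CCNE1 had 0 barcodes in 3 cells, a median of 25.2 CPM and a maximum of 104 CPM in cell 3, against 5.66 through 18.8 to 77.5 CPM in aliquots. The CV was 77.6% in cells and 80.5% in aliquots, and 31 of 38 cells were inside the range of the aliquots (limma p = 0.727, adjusted p = 0.963). CCNE2 had 0 barcodes in 9 cells and 1 aliquot, with medians of 8.75 and 15.1 CPM and maxima of 49.2 CPM in cell 4 and 41.8 CPM in aliquot 3 (limma p = 0.527, adjusted p = 0.930). Its median of 2.5 barcodes per library leaves a counting CV of 58.4% in cells, so single values are uncertain. Of its exon bases 37.1% overlap other genes on the opposite strand, mainly INTS8, whose mean was 61.4 CPM in cells and whose rho with CCNE2 over cells was 0.24.

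CDK2 (ENSG00000123374), the kinase partner of cyclins E and A, gave no exonic read and no exonic barcode in any of the 38 cells. Over all cells 0 of 8782994 exonic barcodes allow up to 0.342 CPM, for counting error only. One aliquot, number 10, held 1 exonic barcode. Its introns were counted: 48 intronic barcodes in cells, spread over 23 of 38 cells with at most 5 in 1 cell, and 11 in 4 of the 10 aliquots. Of its exon bases 16.8% overlap genes on the opposite strand, among them PMEL. Of 19263 protein-coding genes, 12001 had at least 48 intronic barcodes in cells. Among these 12001, 493 genes, CDK2 included, had 0 exonic barcodes in all cells. The 0 is not taken here as absence of CDK2 message, and why it arose was not tested. No spread test was made for CDK2.

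CCND2 (ENSG00000118971) had the highest mean of the D-type cyclins, which bring CDK4 and CDK6 to RB proteins. Cells ran from 31.2 CPM in cell 23 through a median of 166 CPM to 549 CPM in cell 20, with cell 32 at 472 CPM and the third, cell 14, at 273 CPM. Aliquots stayed between 96.9 and 198 CPM (median 155 CPM). Of the cells 12 lay above every aliquot, 7 below and 19 within, while the median gene tested had 6 cells outside the range. Mean log2 deviation was 0.65 in cells and 0.28 in aliquots, a ratio of 2.33-fold, with limma p = 0.0416 (adjusted p = 0.677). The fitted dispersion was 0.301 in cells and 0.00887 in aliquots, with negative-binomial p = 0.00235 (adjusted p = 0.223).

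Cells 20 and 32 also held many CCND2 intronic barcodes, 31 and 44 against a median of 5 per cell. Cell 21 held 32 with an exonic level of 188 CPM, and over 38 cells the exonic and intronic levels had a rho of 0.27. Leaving out each library in turn kept the log2 ratio of CCND2 between 1.08 and 1.55, with an unadjusted p under 0.05 in 37 of 48 fits and no adjusted p under 0.644 (limma). With cells 1 to 10 alone and the replicate block the log2 ratio was 0.71. Of its exon bases 13.8% overlap AC008012.1 on the same strand, which was not found among the counted genes, so its level is unknown here. CCND2-AS1 overlaps on the opposite strand, with a mean of 0.099 CPM in cells and a rho of -0.26 with CCND2 over cells.

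CCND1 (ENSG00000110092) was the most uneven of the genes. It had 0 barcodes in cells 20, 23 and 25 and a median of 22.9 CPM, while cell 7 reached 316, cell 34 256, cell 28 232, cell 15 184 and cell 14 183 CPM. These 5 cells held 53.7% of all CCND1 barcodes, where the 5 highest cells of the other 8 genes with at least 10 CPM held 26.003% to 36.9%. Aliquots ran from 7.03 through 26.3 to 90.5 CPM, and 9 cells lay above them all. The CV was 132% in cells and 79.6% in aliquots, and counting alone would give 27.5% and 40.0%. Its dispersion in cells, 1.36, was above that of 99.2% of the genes tested, but it was 0.498 in aliquots, and neither limma (p = 0.133, adjusted p = 0.768) nor the negative-binomial test (p = 0.0875, adjusted p = 0.614) passed.

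In the 5 cells with most CCND1 each barcode was read 1.86 to 2.34 times, against 2.39 to 3.63 times over all genes of the same libraries. That is not particular to these cells or to CCND1. Over all cells a CCND1 barcode was read 2.08 times, and those of the other genes tested here 1.69 (CDK1) to 2.64 times (CCND2). Their total exonic barcodes ran from 128322 in cell 15 to 319368 in cell 14. Intronic barcodes of CCND1 were 11 in cell 7, the highest of any cell, 6 in cell 14, 3 in cell 15 and 0 in cells 28 and 34. Of its exon bases 10.3% overlap LTO1 on the opposite strand, which had a rho of -0.099 with CCND1 over cells.

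CCND3 (ENSG00000112576) ran from 4.14 CPM in cell 28 through 38.75 to 88.3 CPM in cell 18, and in aliquots from 5.66 through 29.1 to 53.2 CPM. The CV was 54.9% in cells and 56.9% in aliquots, and 28 of 38 cells were inside the range of the aliquots (limma p = 0.670, adjusted p = 0.953). Per kilobase, CCND2 made up 56.5% ± 18.3 (SD, n = 38) of the summed D-type level in cells and 63.6% ± 10.0 (SD, n = 10) in aliquots. It was the highest of the 3 in 28 cells and in 10 of 10 aliquots. CCND1 was the highest in 8 cells, with a share of 0 to 69.6% (median 14.01%), and CCND3 in 2 cells. In aliquots CCND1 held 4.92% to 42.2% (median 18.5%).

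**Figure D3:**
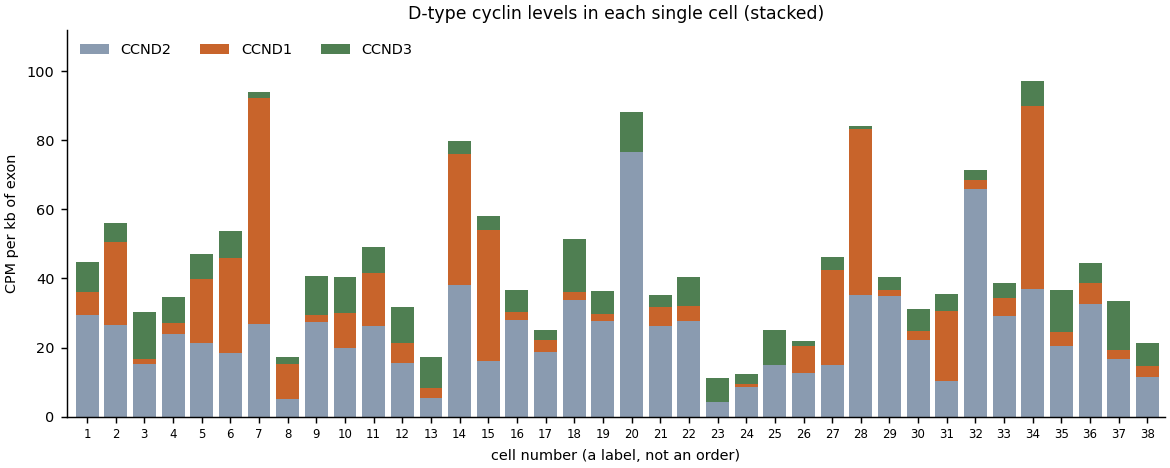
Exonic CPM per kb of CCND2, CCND1 and CCND3, stacked, in each of the 38 single cells by its number. CCND1 was the highest of the 3 in 8 cells, and cells 20 and 32 stand out through CCND2 at 549 and 472 CPM.

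Correlations over libraries follow as a description, without p-values, since all values of a cell come from 1 library and share its depth and scaling. A G2/M score and a G1/S score were taken in each cell by averaging z-scores of log2 CPM, over 51 and 40 listed genes, with none of the 10 genes in either list. The 2 scores had a rho of -0.72 with each other. CCNB1 and CCNB2 went with the G2/M score, at rho = 0.68 and 0.67, and against the G1/S score, at -0.52 and -0.60. CCNE1 and CCNE2 went the other way, at 0.53 and 0.52 with the G1/S score and -0.31 and -0.38 with the G2/M score. CCNA2 had 0.34 with G2/M and 0.14 with G1/S, and CDK1 0.24 and -0.00011. With exonic reads in place of barcodes CCNA2 had -0.052 with G1/S, and after detrending on the cell number 0.067. With 1 cell left out at a time CCNB1 stayed between 0.64 and 0.73 with the G2/M score, CCNB2 between 0.64 and 0.72, and CCNE1 and CCNE2 between 0.48 and 0.61 with the G1/S score. Exonic reads in place of barcodes gave lower values with the G1/S score, 0.47 for CCNE1 and 0.37 for CCNE2. After thinning to the smallest library CCNB2 had 0.48 with G2/M and -0.44 with G1/S, and with exonic reads in place of barcodes 0.48 with G2/M.

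**Figure D4:**
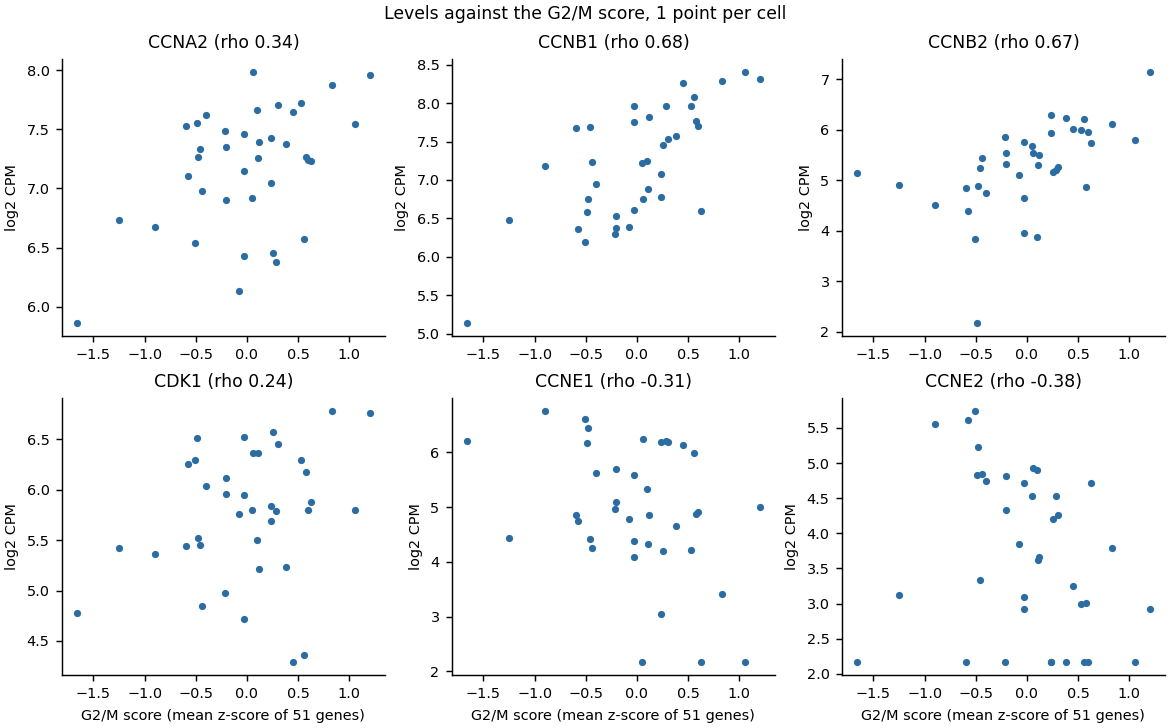
Log2 CPM of CCNA2, CCNB1, CCNB2, CDK1, CCNE1 and CCNE2 (y) against the G2/M score (x) in the 38 single cells, 1 point per cell. CCNB1 and CCNB2 climb along the axis at rho = 0.68 and 0.67, CDK1 spreads at every score at 0.24, and the points in a row at the bottom of CCNE2 are its 9 cells with 0 barcodes.

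Of the D-type genes, CCND1 had 0.059 with G2/M and -0.061 with G1/S, and CCND2 0.15 and -0.13. CCND3 had -0.14 with G2/M and 0.36 with G1/S, where it stayed between 0.31 and 0.45 with 1 cell left out. The total of exonic barcodes had a rho of 0.35 with CCNA2, -0.31 with CCNE1, and -0.24 to 0.25 with the other 7. CCNA2 had -0.59 with the intronic share of its library, the other 8 between -0.26 and 0.073, and 0.32 with the number of the cell. The part of that share in the pattern of CCNA2 was not tested.

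Among themselves, CCNB1 and CCNB2 had a rho of 0.45 over 38 cells and 0.62 over 10 aliquots, and CCNA2 and CCNB1 0.41 and 0.42. CDK1 had a rho over cells of -0.061 with CCNB1, -0.17 with CCNB2 and 0.23 with CCNA2. With a median of 11 barcodes per cell, counting alone would give CDK1 a CV of 28.9% in cells, where 43.6% was seen. Its spread in cells was also no larger than in aliquots. How far such scatter lowers its coefficients was not tested. The mean over the 6 pairs of CCNA2, CCNB1, CCNB2 and CDK1 was 0.19 in cells and 0.083 in aliquots, against 0.0034 over all pairs of genes tested in cells, and it was 0.068 after thinning. CCNE1 and CCNE2 had 0.32 in cells and -0.10 in aliquots.

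CCNB2 and CCNE2 ran most against each other, at -0.60 in cells (-0.66 to -0.57 without 1 cell) and 0.37 in aliquots. By rho with CCNB2, CCNE2 was the last of 9991 other genes. The pair was picked as the lowest of the 36 after the values were seen. CCNE2 had 0 barcodes in 9 cells and a median of 2.5 barcodes per cell, and the part of low counts in this rho was not tested. Mean rho of the B-type with the E-type cyclins was -0.39 in cells and -0.027 in aliquots. CCNE2 and CCND3 had 0.46 in cells and 0.20 in aliquots. CCND1 and CCND3 had -0.37 in cells and -0.42 in aliquots, so that this opposition was as large where the input was pooled. With 10 aliquots the 36 coefficients spread from -0.60 to 0.62, as wide as those over cells, and a value over aliquots is uncertain.

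**Figure D5:**
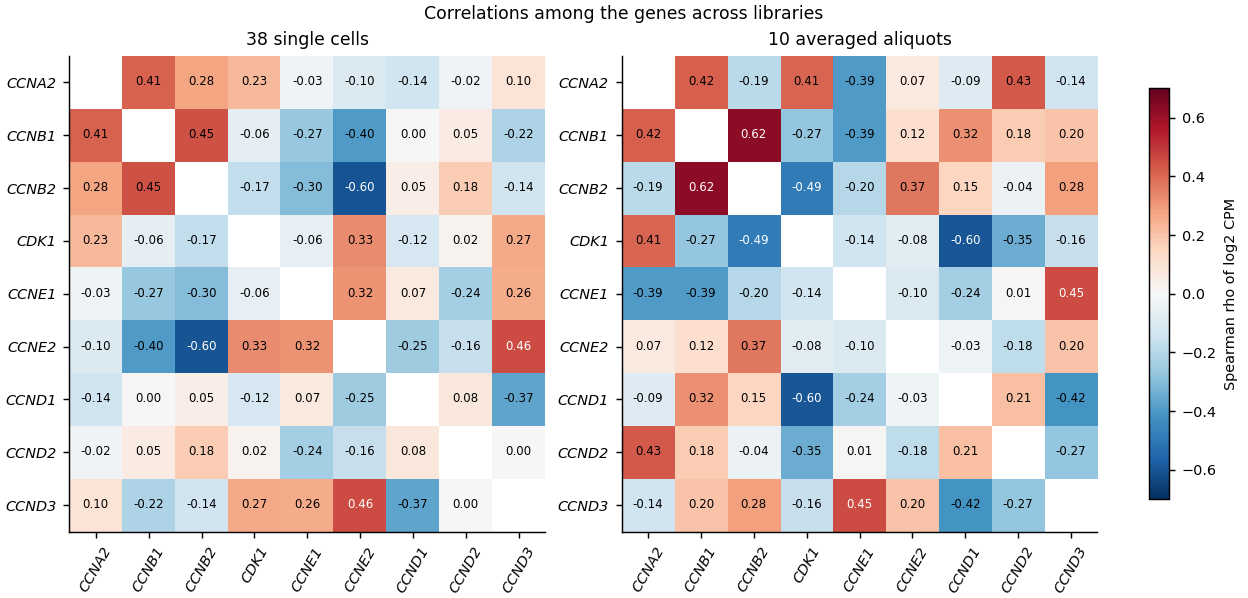
Spearman rho of log2 CPM for each of the 36 pairs of the 9 genes tested, over 38 single cells (left) and 10 averaged aliquots (right), with red for positive and blue for negative values. The B-type and E-type cyclins form blue blocks over cells, down to -0.60 for CCNB2 with CCNE2, which had 0.37 over aliquots.

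The likeness of other genes to each cyclin was measured by rho over the 38 cells. Among 8100 other genes with a symbol and at least 20 CPM, those nearest to CCNB1 were DLGAP5 (rho 0.72), the mitotic kinase PLK1 (0.70) and the kinetochore gene CENPF (0.68). Nearest to CCNB2 were the condensin subunit NCAPD2 (0.71), the spindle factor TPX2 (0.67) and the kinetochore motor CENPE (0.67). For CCNA2 they were the condensin subunit NCAPG (0.68), COA7 (0.68) and the cochaperone DNAJA1 (0.67), which had -0.43, -0.49 and -0.50 with the intronic share. CDK1 was nearest to the importin KPNA5 (0.63), USP42 (0.60) and UBE2C (0.58), the ubiquitin-conjugating enzyme of the anaphase-promoting complex.

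Nearest to CCNE1 were WDR76 (0.61), SRP14 (0.60) and CPNE8 (0.56). WDR76 had 0.60 with the G1/S score, but it is itself a gene of that score. CCNE2 was nearest to CWF19L1 (0.66), MOB3B (0.59) and the kinase PASK (0.59). For CCND1 they were NIFK (0.60), PPRC1 (0.55) and CRACR2A (0.52), for CCND2 ERP29 (0.63), PTPRU (0.57) and ASH1L (0.56), and for CCND3 SEC23A (0.62), SLC25A5 (0.59) and POC5 (0.58). A maximum over so many genes is high by selection. Over the 10 aliquots the same pairs ran from -0.84 for CCNE1 with WDR76 to 0.59 for CCNB1 with PLK1.

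Introns, which come mostly from RNA not yet spliced, made up 53.6% of all barcodes in cells and 57.6% in aliquots. That share pools all genes. How shares of single genes are spread was not taken, and intron length was not considered, so a low share is not read as particular to a gene. Against the pooled share, that of CCND1 was far smaller, at 8.13% of 578 barcodes in cells and 11.8% in aliquots. So was that of CCNA2, at 9.05% and 15.8%. CCNB1 had 14.6% and 20.6%, CCND2 18.3% and 21.98%, CCNB2 22.4% and 21.4%, CDK1 27.1% and 31.6%, and CCNE1 30.9% and 34.4%. CCNE2 reached 51.1% and 52.6% and CCND3 53.2% and 71.5%. Exonic and intronic levels of a gene went together most for CCNE1 over cells (rho 0.60), then CCNB1 (0.45) and CCND1 (0.43), and CCND3 had -0.20. CCNB1 introns were highest in cell 30, at 32 barcodes against a median of 4, the cell with the second highest exonic CCNB1 and the highest CCNB2.

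Genes that control these cyclins and kinases were read from lists chosen by function. Of 4 tested CDK inhibitors 0 were called by limma, as were 0 of 10 CDK activators and tyrosine kinases, 0 of 5 other cell cycle cyclins and CDKs, 0 of 8 genes of cyclin degradation, 0 of 12 RB and E2F genes and 0 of 9 MuvB and mitotic transcription factors, and the negative-binomial test called 0 in each at an adjusted p under 0.05. Over all genes tested, limma called 0.0% and the negative-binomial test 0.23% with larger spread in cells. These counts of 0 therefore say nothing particular about the lists. Without adjustment, limma gave 0, 0, 0, 2, 2 and 2 genes more spread in cells at p under 0.05 in that order, where 3.67% of all genes were. It gave 0, 0, 0, 0, 2 and 1 genes more spread in aliquots. The share over all genes in that direction was not taken, so whether those counts are unusual cannot be said. Also without adjustment, the negative-binomial test gave 0, 1, 3, 3, 2 and 2 with larger dispersion in cells, where 6.86% of all genes were. The median log2 ratio of cell to aliquot deviation was -0.091, -0.060, 0.54, -0.0038, -0.045 and 0.057 in that order, beside 0.062 over all genes. For the 40 G1/S genes it was 0.53 and for the 51 G2/M genes 0.54, with 34 and 42 of them more spread in cells, as were 54.9% of all genes. Limma called 0 of either list, with 6 and 11 genes more spread in cells at an unadjusted p under 0.05, and the negative-binomial test gave 10 and 15 in that way, against the same 3.67% and 6.86% of all genes. After adjustment the negative-binomial test called 1, the proliferation marker MKI67 of the G2/M list (dispersion 0.215 in cells and 0.00887 in aliquots, adjusted p = 0.0475), which was chosen here after its value was seen.

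The 2 genes of each list with the smallest limma p had values that did not pass after adjustment. CCNF, cyclin F, had a CV of 56.8% in cells and 14.9% in aliquots (negative-binomial adjusted p = 0.164), and CDK6, a partner of D-type cyclins, 51.5% and 27.01%. CDC20, which activates the anaphase-promoting complex, had 47.9% and 27.9% and UBE2C 58.5% and 24.045%, with rho = 0.66 with the G2/M score for both. E2F2 had 108% and 47.8% and a rho of 0.72 with the G1/S score, and TFDP1, a dimer partner of E2F factors, 22.7% and 35.4%. CKS2, a small CDK subunit, had 46.5% and 22.6% and a rho of 0.60 with G2/M, and the phosphatase CDC25C 66.4% and 74.4% with 0.56. CDC20, UBE2C, CKS2 and CDC25C are themselves among the genes of the G2/M score, so each rho is partly that of a gene with itself. FOXM1 had 38.69% and 17.8% and RBBP4 36.2% and 15.2%, and the inhibitors CDKN1A 107% and 64.4% and CDKN2C 46.8% and 75.4%. Adjusted limma p ran from 0.562 for TFDP1 to 0.900 for CDKN1A among the 12.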

How the data were processed

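Each of the 48 deposited files gives exonic reads, exonic barcodes, intronic reads and intronic barcodes per gene, as whole-number counts that the authors did not normalize. TopHat and HTSeq were run by the authors on hg19, per the submitters' processing notes, with versions and strand setting not given in the sources. Symbols and exon lengths came from GENCODE on another build, which gave 52338 of 57820 identifiers a symbol, and no coordinates of the files are printed. Of 703 pairs of cells and 45 pairs of aliquots none agreed within sampling noise.

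Exonic barcodes were scaled by TMM (edgeR 4.0.16). Spread was tested two-sided over the 9992 genes averaging 10 CPM or more with limma 3.58.1 in R 4.3.3, on each library's absolute distance to its group's median log2 CPM (prior count 1), with trended, robust moderation and Benjamini-Hochberg adjustment. The alternative was a negative-binomial likelihood-ratio test of 60 dispersions from 0.001 to 20. On simulated counts with added variation between cells the negative-binomial test made most of the calls after adjustment. Limma made none there, although most such genes had a small unadjusted limma p. The simulated levels and added variation were not set to those of the cyclins and CDK1. How often either test would call these genes was therefore not shown. Other alternative runs used DESeq2 1.42.0 size factors, filters, reads, thinning to 128322 barcodes, detrending and each library left out. Groups and numbers came from the labels. The members, gene lists and named-gene rule were chosen with earlier results of these data known: the rule named all members, the 3 genes nearest by rho to each, and the 2 genes with the smallest p in each list other than the G1/S and G2/M lists.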

Additional observations from a re-analysis of the deposited data

Results flagged for a closer look

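Values far from the other aliquots were sought in the 10 aliquots for exonic and intronic levels of each gene. For values that follow a normal curve, chance gives about 1 flag in 20 such groups. That rate does not hold for counts near 0. Aliquot 9 held CCNE1 at 45.8 per 1000000 intronic barcodes, from 10 barcodes. Aliquot 10 held CDK2 at 5.99 exonic CPM, which is a single barcode against 0 in the other 9 aliquots. With 0 in all others, any single barcode would be flagged.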

How the results depend on the processing

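The count of called genes stayed at 0 under every alternative run. Apart from the negative-binomial test these are limma runs, and in the main run limma called 0.0% of all genes with larger spread in cells. A count of 0 in the limma reruns therefore shows nothing particular about these genes. The median log2 spread ratio, 0.23, ran from 0.094 with a prior count of 3 to 0.61 at a minimum of 50 CPM, which leaves out CCNB2, CCND3, CCNE1 and CCNE2, and from 0.15 without averaged aliquot 8 to 0.50 without averaged aliquot 2. The mean rho of CCNA2, CCNB1, CCNB2 and CDK1 ran from 0.068 after thinning to 0.19 after detrending on the cell number, and from 0.12 without cell 30 to 0.21 without cell 27. The direction turned for 3 genes with ratios near 0. CCNE1 had -0.14 with exonic reads, -0.084 with the replicate block, and with 1 library left out ran from -0.012 (without averaged aliquot 10, and close to it without 9) to 0.34. CCNB2 had -0.064 without cell 19, with a range up to 0.23, and CCND3 0.12 without averaged aliquot 1 and 0.083 without averaged aliquot 9, with a range down to -0.30. The cause was not tested. Cells and aliquots share numbers 1 to 10, and deviations of same-numbered libraries over the genes tested correlated at -0.043 to 0.046. No pairing was seen in this way, but a shared step that touched few genes would not show in it. With the replicate block the median ratio over cells 1 to 10 and the aliquots was 0.41 and 0 genes were called. With exonic reads the mean CPM was lower for all 9 genes tested in both groups, among them CDK1 in cells (29.8 in place of 54.6), CCND1 in aliquots (18.1 in place of 34.2), CCNB2 in aliquots (25.3 in place of 46.6) and CCNE1 in aliquots (17.003 in place of 31.3), and CCNE2 was below the filter. CCNE2 has 2.5 barcodes per library at the median, which limits any difference that could be seen.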
